A study of Homo sapiens with 3 samples.

Results

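The nuclear-encoded subunits of the respiratory chain and ATP synthase were followed over 3 days of differentiation of human pluripotent stem cells. The members were every gene whose symbol is NDUFA, NDUFB, NDUFC, NDUFS or NDUFV with a number, or begins with UQCR, with COX and a digit from 4 to 8, or with ATP5, and holds no hyphen. This rule took 82 of the 36601 genes counted, of which 37 carry complex I names, 9 complex III names, 17 complex IV names and 19 complex V names. The cells were of UCLA1, which is an established line of human embryonic stem cells, in the culture that the labels call GiMO, sampled on day 1, day 2 and day 3. All libraries share that line and a Geltrex overlay (a basement membrane extract), and they differ in the labels by day alone. The series title names a response to BMP4, but the labels used here give neither its dose nor its timing.

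Oxidative phosphorylation passes electrons from NADH and succinate through complexes I to IV to oxygen, and complex V uses the resulting proton gradient to make ATP. Mitochondrial DNA encodes the hydrophobic cores of complexes I, III, IV and V, while nuclear genes encode all other subunits, which are imported and assembled with them. Pluripotent stem cells are known for a high rate of glycolysis, and many lineages raise respiration as they differentiate.

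There was 1 library of dissociated single cells per day, so day, library and any batch cannot be told apart, differences between days have no replicates behind them and are given without p-values. After filtering, 3533, 7224 and 6804 cells were kept on days 1, 2 and 3, with median depths of 41550, 15653.5 and 19227.5 unique molecular identifiers (UMIs) per cell. UMIs were summed over the cells of a library and given as CPM (UMIs per 1000000 UMIs of the library), and all intervals are exact 95% intervals that cover counting error only. Pairs of libraries shared 9 to 21 cell barcodes of 4889 or more. Unlike the library sums, marker lists were summed over cells of at least 5000 UMIs, each thinned to 5000 UMIs. Pluripotency markers (POU5F1, NANOG, SOX2, DPPA4 and TDGF1), which mark the stem cells of the label, summed to 1853, 1700 and 657 CPM on days 1, 2 and 3. Mesoderm markers (MESP1, MESP2, TBX6, HAND1, PDGFRA and LHX1) summed to 9.60, 165 and 1567 CPM. A member was called higher or lower in a comparison when it reached 10 CPM in the higher library, the ratio was at least 1.5-fold and its interval excluded 1.

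As a group the members took a smaller share of the transcriptome after day 1. Together they made up 2.47% of all UMIs on day 1 (2.469% to 2.474%), 2.04% on day 2 (2.035% to 2.040%) and 1.96% on day 3 (1.954% to 1.959%). Of the 82 members, 74 reached 10 CPM, and their median log2 ratio of day 2 over day 1 was -0.26, against 0.22 over the 9716 genes tested in that comparison. From day 1 to day 2, 10 members were called lower and 2 higher, where 5.33% and 17.4% of all genes tested were called in those directions. From day 2 to day 3, 1 member was lower and 2 were higher, against 12.2% and 12.3% of 10149 genes, and the median log2 ratio was -0.10 against 0.05. Day 3 over day 1 gave 23 lower members and 3 higher, against 15% and 31% of 10102 genes, with a median log2 ratio of -0.28 against 0.27. With calls from a difference of 25%, 33 members were lower and 3 higher on day 2 than on day 1 (14.3% and 40.4% of all genes), 11 lower and 5 higher on day 3 than on day 2 (20.5% and 24.4%), and 35 lower and 9 higher on day 3 than on day 1 (23% and 46.9%). The summed share was thus lower at both steps, by ratios of 0.824 (0.823 to 0.826) from day 1 to day 2 and 0.960 (0.959 to 0.962) from day 2 to day 3.

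The group fall was relative to the total and was shared by the ribosomal proteins. Cytosolic ribosomal protein genes took 23.7%, 19.98% and 19.6% of UMIs on days 1, 2 and 3, so that the members came to 10.4, 10.2 and 10.0 UMIs per 100 ribosomal protein UMIs. Per ribosomal protein UMI the median log2 ratio of the members was -0.0094 for day 2 over day 1 and 0.0014 for day 3 over day 1. By that scaling 1 member was called lower and 2 higher on day 2, against 1.66% and 38.9% of all genes. Scaling by the trimmed mean of M-values (TMM), which moved the median of all genes from 0.22 to -0.10 for day 2 over day 1, gave the members a median of -0.58. Under TMM 37 members were called lower and 0 higher, against 16.7% and 6.02% of all genes. Of the 74 members, 34 changed sign among the scalings for day 2 over day 1. Each scaling moves every gene by 1 constant, smaller than the threshold of a call, so a called member could not change sign.

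**Figure D1:**
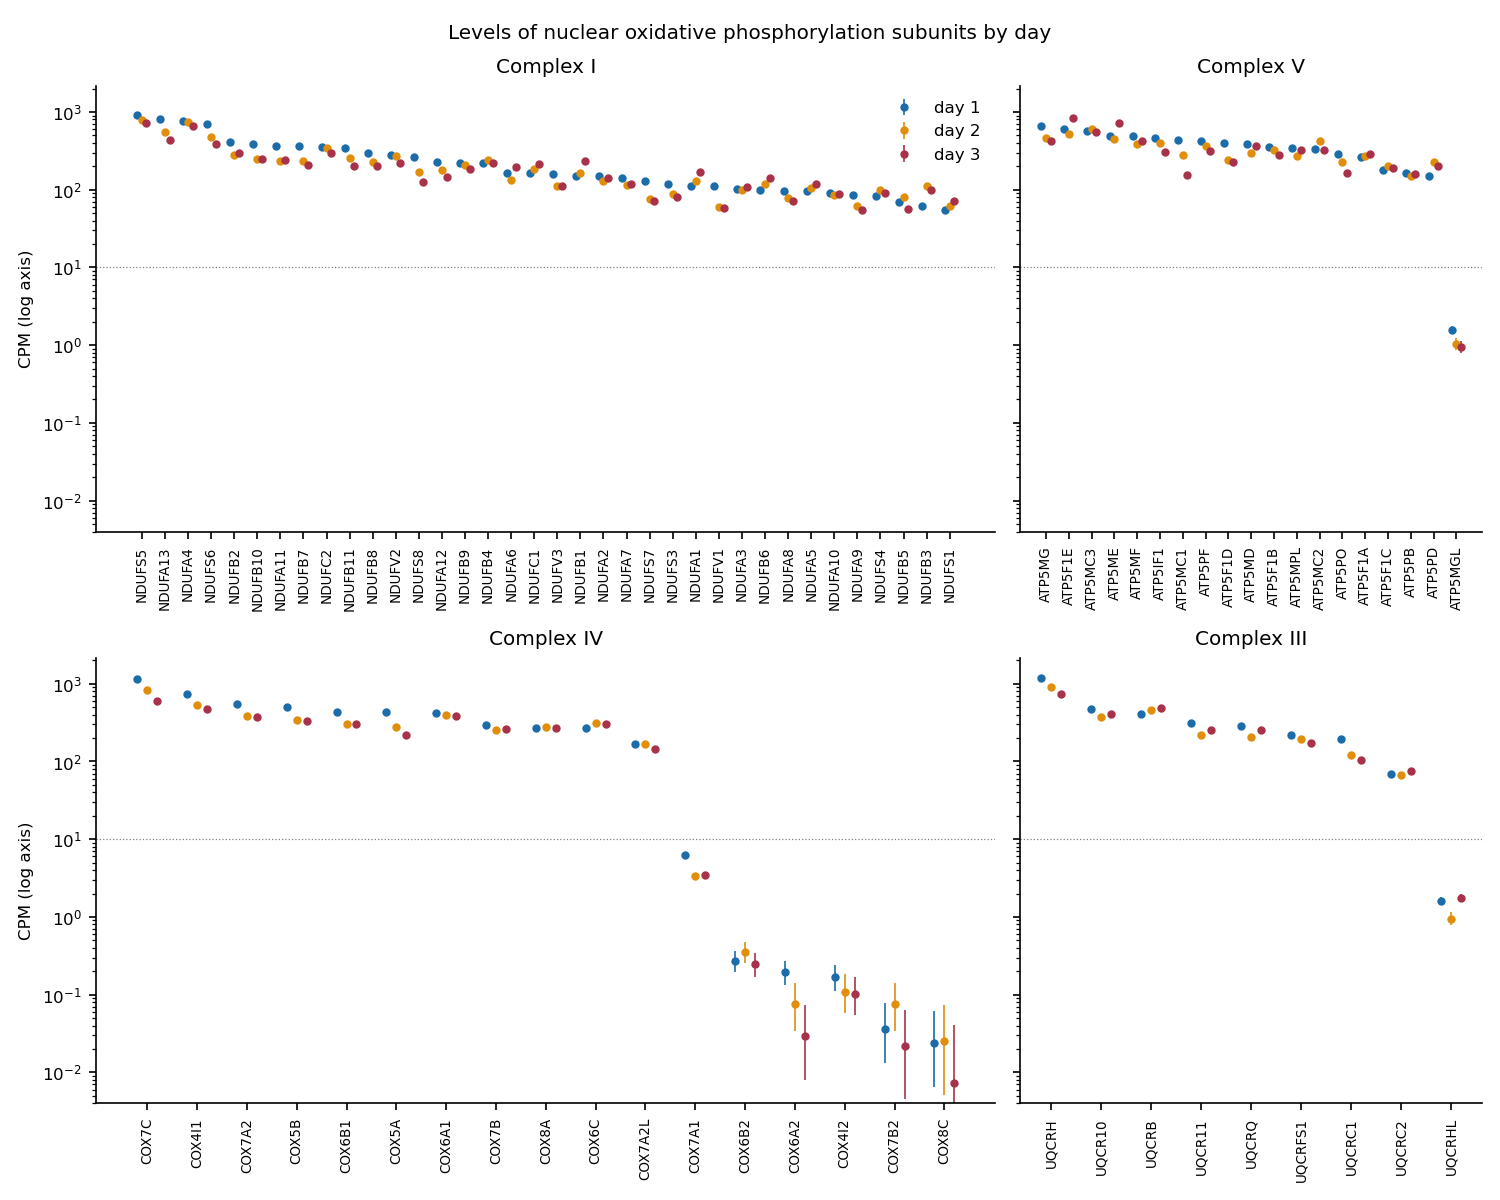
Each point is 1 member in 1 library, in CPM on a log axis, with a panel per complex (1 complex I member is not drawn), colours for days and bars for exact 95% Poisson intervals, which are mostly smaller than the points. A reader sees most members above the dotted line at 10 CPM on similar levels each day, and 8 isoforms or copies below it.

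**Figure D2:**
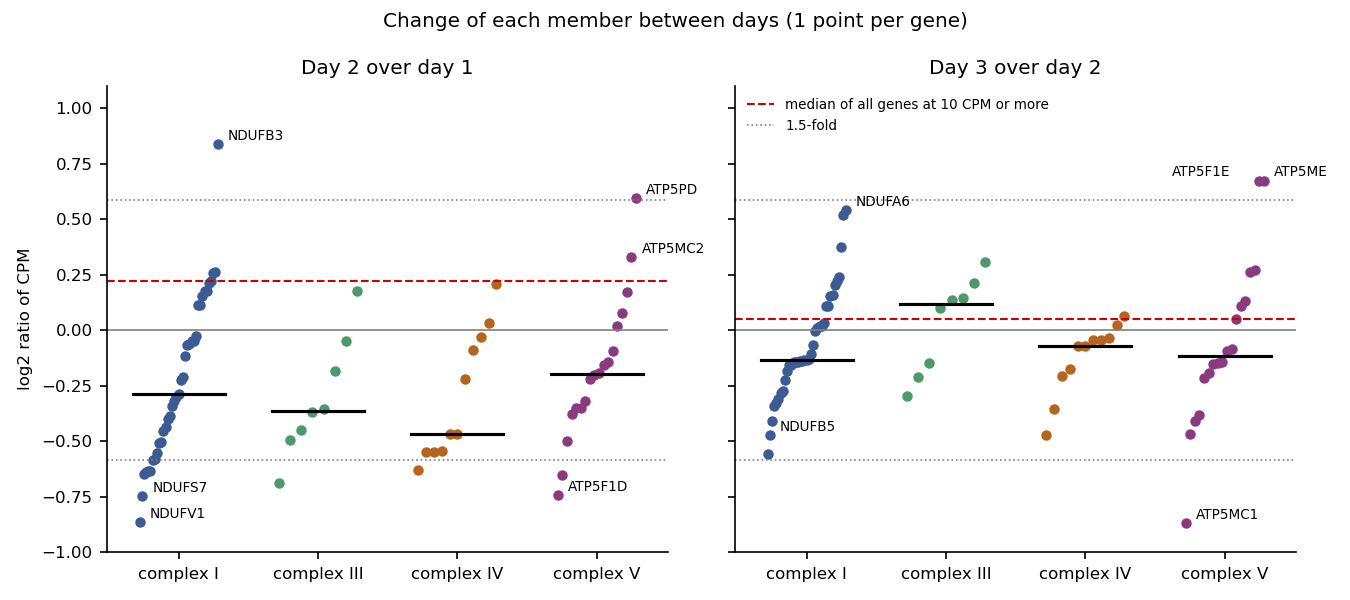
Each point is 1 of the 74 members at 10 CPM or more, placed by complex, with its log2 ratio of CPM on the vertical axis for day 2 over day 1 (left) and day 3 over day 2 (right). Black bars are the medians of each complex, the dashed line is the median of all genes tested and the dotted lines mark 1.5-fold. On the left all 4 medians are below 0, although that of complex V turns positive per ribosomal protein UMI, and on the right ATP5MC1, ATP5ME and ATP5F1E stand past the dotted lines.

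Complex I takes electrons from NADH in an arm that reaches into the matrix and pumps protons through an arm in the membrane. Its 37 genes made up 0.931%, 0.764% and 0.716% of UMIs on days 1, 2 and 3. On day 2, 6 were lower and 1 higher than on day 1, against 5.33% and 17.4% of all genes. In both comparisons with day 1 the lowest medians within the complex were in the matrix arm. Of its 7 nuclear-encoded core subunits, which hold the flavin and the iron-sulfur clusters, 3 were called lower on day 2, against 5.33% of all genes. On day 3, 4 were lower than on day 1, against 15%, and the median log2 ratios were -0.44 and -0.85. NDUFV1, NDUFS7 and NDUFS8, called lower on day 2, have transcripts of 60.6%, 66.9% and 63.5% GC. Other genes at 100 CPM or more and 60% GC or more had medians of -0.54 and -0.68, and the part of composition was not tested.

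NDUFV1, the core subunit that binds NADH and the flavin, took 110, 60.7 and 58.0 CPM on days 1, 2 and 3. Its gene lies at chr11:67605653-67612554 on the plus strand (hg38, as for all gene positions below). The ratio of day 2 over day 1 was 0.550 (0.535 to 0.565), the lowest of any member, and the ratio of day 3 over day 2 was 0.956. NDUFS7 and NDUFS8, which carry the last iron-sulfur clusters before ubiquinone, took 129, 76.8 and 71.4 CPM and 262, 167 and 126 CPM. Thus NDUFS7 (chr19:1383527-1395589) was lower on day 2 by a ratio of 0.596 (0.581 to 0.610) and then nearly level, while NDUFS8 (chr11:68030617-68036644) was lower at each step, by ratios of 0.639 (0.629 to 0.650) and 0.754 (0.739 to 0.769).

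Other core subunits did not move as one. NDUFS3 took 120, 88.4 and 80.1 CPM and NDUFV2 took 280, 268 and 220 CPM. NDUFS1, the largest subunit of the complex, took 54.1, 61.2 and 71.3 CPM, which was not past 1.5-fold.

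Accessory subunits surround this core, and most are needed for its assembly or stability. Among the 11 NDUFB genes, which belong to the membrane arm, 2 were lower and 1 was higher on day 2, against 5.33% and 17.4% of all genes. NDUFB3 (chr2:201071433-201085750, plus strand) took 62.1, 111 and 99.6 CPM, low on day 1 and higher on both later days. Its ratio of day 2 over day 1, 1.79 (1.74 to 1.83), was the highest of all members. NDUFB7 took 360, 232 and 210 CPM and NDUFB10 took 383, 247 and 247 CPM, so that both were called lower on day 2 and again on day 3 against day 1. NDUFB1 went the other way at the last step, with 152, 164 and 235 CPM and a ratio of day 3 over day 1 of 1.55 (1.52 to 1.57).

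NDUFB6 and NDUFS4 were among the 6 highest ratios of day 2 over day 1, with 99.8, 119 and 141 CPM and 82.1, 98.5 and 90.1 CPM, and neither reached 1.5-fold. NDUFB5 took 68.5, 79.5 and 57.3 CPM, and its ratio of day 3 over day 2 was 0.720 (0.699 to 0.742). NDUFA1, an X-linked accessory subunit (chrX:119871832-119876662), took 112, 130 and 169 CPM and was called higher on day 3 than on day 1, with a ratio of 1.51 (1.48 to 1.54). NDUFA6 took 166, 134 and 195 CPM, a dip on day 2 followed by a ratio of 1.46 (1.43 to 1.49).

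The complex I genes with the most UMIs did not include a core subunit. NDUFS5 took 918, 785 and 713 CPM, NDUFA13 took 812, 553 and 437 CPM and NDUFS6 took 708, 473 and 392 CPM on days 1, 2 and 3. NDUFA13 and NDUFS6 were called lower on day 3 than on day 1, with ratios of 0.538 (0.533 to 0.543) and 0.554 (0.548 to 0.559). NDUFA4, which carries a complex I name but is now assigned to complex IV, took 773, 747 and 658 CPM. NDUFC2 took 354, 348 and 298 CPM. These values are not per length, so they order the genes by UMIs captured and not by transcripts in the cell.

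Complex III passes electrons from ubiquinol to cytochrome c. Its 9 genes made up 0.315%, 0.256% and 0.252% of UMIs, and 8 reached 10 CPM. UQCRC1, a core protein on the matrix side (chr3:48599002-48610976, minus strand), took 196, 122 and 105 CPM and was the only complex III gene called lower on day 2, with a ratio of 0.620 (0.608 to 0.633). Its partner UQCRC2 took 69.6, 67.4 and 74.5 CPM, so the pair did not fall together. UQCRFS1, the Rieske iron-sulfur protein, took 218, 192 and 174 CPM.

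The small subunits of complex III held most of its UMIs. UQCRH, the hinge protein, took 1184, 917 and 747 CPM and was called lower on day 3 than on day 1 (ratio 0.631, 0.626 to 0.636). UQCRB took 405, 459 and 493 CPM, UQCR10 took 479, 375 and 413 CPM, and UQCR11 took 311, 221 and 256 CPM. UQCRQ fell short of the threshold in each comparison with 282, 206 and 255 CPM and a ratio of day 3 over day 2 of 1.24 (1.22 to 1.26). For day 3 over day 2 the median log2 ratio of complex III was 0.12 while its summed share was slightly lower, since 5 of 8 genes were above 0 and UQCRH, the gene with the most UMIs, was below. UQCRHL, an intronless copy of UQCRH, had 268, 114 and 243 UMIs in all, and reads of UQCRH and UQCRHL could have been split in the counting.

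Complex IV reduces oxygen, and its nuclear-encoded subunits surround a catalytic core made in the mitochondrion. The 17 genes made up 0.523%, 0.407% and 0.365% of UMIs, and their median log2 ratios were -0.46 for day 2 over day 1 and -0.53 for day 3 over day 1, the lowest of the 4 complexes under the CPM scaling. COX5A (chr15:74919791-74938083, minus strand) took 430, 278 and 217 CPM and was the 1 gene of the complex called lower on day 2, with a ratio of 0.646 (0.638 to 0.654). COX7C took 1142, 827 and 598 CPM, with a ratio of 0.725 (0.719 to 0.730) at the first step and 0.722 (0.716 to 0.729) at the second. Over both steps COX5A, COX7C, COX4I1 and COX5B were called lower (4 of 11 tested) and 0 higher, against 15% and 31% of all genes.

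COX4I1, the general form of subunit 4, took 735, 531 and 471 CPM, and COX5B took 501, 344 and 328 CPM. COX7A2 took 554, 379 and 370 CPM. COX6B1 took 438, 299 and 304 CPM, so that COX4I1, COX5B, COX7A2 and COX6B1 were all highest on day 1 without passing 1.5-fold on day 2. COX6A1 took 425, 400.0 and 381 CPM, COX8A took 270, 276 and 268 CPM, and COX6C took 268, 309 and 300.3 CPM. COX7B took 295, 253 and 265 CPM, and COX7A2L, which links complexes III and IV in supercomplexes, took 169, 166 and 143 CPM.

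Several complex IV subunits have a second gene used in particular tissues, and those isoforms were near the detection limit on every day. COX4I2, known from lung, had 28, 13 and 14 UMIs in the whole libraries. COX6A2, a heart and muscle form, had 32, 9 and 4 UMIs, and COX6B2, a testis form, had 45, 42 and 34. COX7B2 had 6, 9 and 3 UMIs and COX8C had 4, 3 and 1. COX7A1, the heart and muscle form of subunit 7A, was the only restricted isoform above 1 CPM, with 6.29, 3.37 and 3.43 CPM on days 1, 2 and 3. No restricted isoform thus reached 10 CPM on any day, including day 3, when mesoderm markers were highest.

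Complex V, the ATP synthase, has a catalytic head (F1), a ring of c subunits that turns with the proton flow, a peripheral stalk and small subunits in the membrane that help to form dimers. Its 19 genes made up 0.702%, 0.611% and 0.624% of UMIs, so their share of all member UMIs went from 28.4% to 30.0% and 31.9% on days 1, 2 and 3. Between days 2 and 3 the summed share was higher while the median log2 ratio was -0.12. ATP5ME and ATP5F1E, called higher, and ATP5MC1, called lower, were the only members called at that step in any complex.

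Subunit c is encoded by ATP5MC1, ATP5MC2 and ATP5MC3, whose proteins differ in the import sequence at the front and share the mature part. The 3 coding sequences end in 77 codons that translate alike, after 59, 64 and 65 codons that are particular to each gene. Whether the counted reads covered these ends was not examined. The 231 bases are shown because the paralogs that give this one product moved apart and differ in sequence there. They are from the canonical transcripts of GENCODE release 44, 5′ to 3′ without the stop codon, and capitals mark the 57 positions at which the genes are not all the same.
ATP5MC1: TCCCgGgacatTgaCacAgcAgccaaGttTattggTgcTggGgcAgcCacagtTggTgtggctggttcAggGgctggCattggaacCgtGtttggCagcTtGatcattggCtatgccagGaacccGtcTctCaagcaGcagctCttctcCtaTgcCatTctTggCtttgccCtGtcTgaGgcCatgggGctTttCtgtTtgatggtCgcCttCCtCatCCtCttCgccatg
ATP5MC2: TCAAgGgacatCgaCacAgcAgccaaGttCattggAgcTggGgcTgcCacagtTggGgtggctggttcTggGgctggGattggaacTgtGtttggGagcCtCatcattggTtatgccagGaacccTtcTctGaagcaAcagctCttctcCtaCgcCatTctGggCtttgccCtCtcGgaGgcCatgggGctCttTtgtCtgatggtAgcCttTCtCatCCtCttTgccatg
ATP5MC3: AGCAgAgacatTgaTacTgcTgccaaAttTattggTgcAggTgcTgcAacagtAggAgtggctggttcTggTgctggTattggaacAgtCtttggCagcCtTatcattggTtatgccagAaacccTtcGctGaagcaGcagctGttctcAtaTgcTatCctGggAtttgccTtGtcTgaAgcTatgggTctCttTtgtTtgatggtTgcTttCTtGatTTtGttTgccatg
ATP5MC1 and ATP5MC2 were identical at 88.3% of these bases, and each was identical to ATP5MC3 at 80.1%.

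ATP5MC1 (chr17:48892765-48895871, plus strand) took 441 CPM on day 1, 280 on day 2 and 154 on day 3. It was lower at each step, by ratios of 0.636 (0.628 to 0.644) and 0.548 (0.539 to 0.558), and its ratio of day 3 over day 1, 0.349 (0.343 to 0.354), was the lowest of all members. ATP5MC2 (chr12:53632726-53677408, minus strand) took 337, 424 and 325 CPM, with a ratio of 1.26 (1.24 to 1.27) followed by 0.767 (0.757 to 0.776). ATP5MC3 (chr2:175176258-175181710, minus strand) took 571, 603 and 546 CPM and stayed within ratios of 0.905 and 1.06. ATP5MC2 and ATP5MC3 thus ended at ratios of 0.963 and 0.957 for day 3 over day 1, and ATP5MC1 was the one paralog called at any step. Summed over the 3 genes, subunit c made up 0.135%, 0.131% and 0.102% of UMIs.

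ATP5ME, subunit e at the dimer interface (chr4:672436-674330, minus strand), took 497, 451 and 719 CPM. Subunit epsilon of the catalytic head, ATP5F1E (chr20:59025475-59032345, minus strand), took 612, 526 and 839 CPM. Both were thus highest on day 3, with the same ratio of day 3 over day 2, 1.60 (1.58 to 1.61). Neither reached 1.5-fold for day 3 over day 1, at ratios of 1.45 and 1.37.

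The rest of the head did not follow ATP5F1E. ATP5F1A and ATP5F1B, the alpha and the catalytic beta subunit, took 265, 269 and 290 CPM and 358, 321 and 280.5 CPM, and ATP5F1C, the gamma shaft, took 178, 200 and 189 CPM. ATP5F1D, the delta subunit (chr19:1241746-1244825, plus strand), took 403, 241 and 226 CPM and was called lower on day 2 with a ratio of 0.597 (0.589 to 0.606). Subunits of 1 assembly thus stood between a ratio of 0.561 and 1.37 on day 3 against day 1.

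In the peripheral stalk, ATP5PD (chr17:75038863-75046985, minus strand) took 149, 224 and 202 CPM and was called higher on day 2, with a ratio of 1.51 (1.48 to 1.54). ATP5PO, which joins the stalk to the head, took 290, 228 and 165 CPM and was lower on day 3 than on day 1 by a ratio of 0.567 (0.559 to 0.577). ATP5PF took 422, 368 and 317 CPM and ATP5PB took 162, 152 and 157 CPM. Of the small membrane subunits, ATP5MG took 654, 463 and 417 CPM and was called lower on day 3 than on day 1. ATP5MF took 491, 385 and 421 CPM, ATP5MD took 390, 300.4 and 362 CPM and ATP5MPL took 340, 273 and 327 CPM. These 3 of the 5 small membrane subunits had their lowest value on day 2 without passing 1.5-fold. ATP5ME, of the same 5, also had its lowest value on day 2. ATP5IF1, the inhibitor of reverse ATP synthase activity, took 457, 400 and 302 CPM and was called lower on day 3 than on day 1 (ratio 0.660). ATP5MGL, an intronless copy of ATP5MG, stayed between 0.943 and 1.58 CPM.

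The promoters of ATP5MC1 and ATP5ME are printed as those of the members that moved in opposite directions between days 2 and 3. They are the 250 bases upstream of the RefSeq start (GRCh38.p14), 5′ to 3′ on the strand of the gene, at chr17:48892537-48892786 on the plus strand and chr4:674277-674526 on the minus strand. Capitals mark matches, on either strand, to a loose form of the motif of NRF1 (GCGC, any base, then TGCGC), a known activator of respiratory genes.
ATP5MC1: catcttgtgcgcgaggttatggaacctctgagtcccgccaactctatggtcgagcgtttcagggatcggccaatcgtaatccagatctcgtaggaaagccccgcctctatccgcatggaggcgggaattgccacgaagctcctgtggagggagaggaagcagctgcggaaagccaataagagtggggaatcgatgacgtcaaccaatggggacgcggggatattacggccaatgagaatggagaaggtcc
ATP5ME: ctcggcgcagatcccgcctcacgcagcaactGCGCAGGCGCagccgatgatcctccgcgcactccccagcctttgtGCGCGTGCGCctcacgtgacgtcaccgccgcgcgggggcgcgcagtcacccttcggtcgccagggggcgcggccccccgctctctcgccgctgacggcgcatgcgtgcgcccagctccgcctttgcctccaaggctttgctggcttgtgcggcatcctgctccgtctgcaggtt
ATP5ME held 2 such matches and ATP5MC1 held none in this window. Over windows from 250 bases before to 50 bases after the start, 64 of the 82 members had a RefSeq promoter, and 14 of these (21.9%) held this motif, against 6.25% of 27241 other promoters and 12.8% of the 8073 of expressed genes. The 13 members at 10 CPM or more with a match had a median log2 ratio of day 2 over day 1 of -0.34 and the 47 without one -0.30, and for day 3 over day 2 the medians were -0.13 and -0.07. CCGGAAGT, an ETS-type motif bound by GABPA, was in 12.5% of member promoters and 9.61% of those of expressed genes, and AAGATGGCG, a YY1 motif, in 10.9% and 4.55%. A match is a description of these letters only.

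Members with GC-rich transcripts were lower on day 2, and so were other genes of like composition. Over the 74 members, GC content of the canonical transcript and the log2 ratio of day 2 over day 1 had a Pearson r of -0.60 and a Spearman rho of -0.61. These correlations are across genes of the same libraries, which are not independent replicates. The values for day 3 over day 2 were -0.17 and -0.09. NDUFV1, NDUFS7 and ATP5F1D, the lowest members on day 2, had GC contents of 60.6%, 66.9% and 69.5%, whereas NDUFB3 and ATP5PD, the highest, had 40.8% and 45.2%.

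Among genes at 100 CPM or more in a library, the members under 45% GC had a median log2 ratio of day 2 over day 1 of -0.03 (21 genes) and those of 60% or more had -0.65 (7 genes), where the medians of other genes were 0.33 and -0.54. Member transcripts were also short, with a median of 716.5 bases over GENCODE's gene models against 3447 for expressed genes. In the class of at least 50% GC and under 1000 bases, 26 members had a median of -0.46 and 194 other genes -0.44. Under 50% GC and under 1000 bases, 18 members had -0.21 and 134 other genes 0.02. The 3 exceptional genes of the second step did not line up in this way, with GC contents of 55.1% for ATP5MC1, 54.5% for ATP5ME and 38.4% for ATP5F1E. ATP5MC2, at 54.9% GC and 632 bases, was close to ATP5MC1, at 646 bases, in both properties. The part of composition in these differences was not tested.

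**Figure D3:**
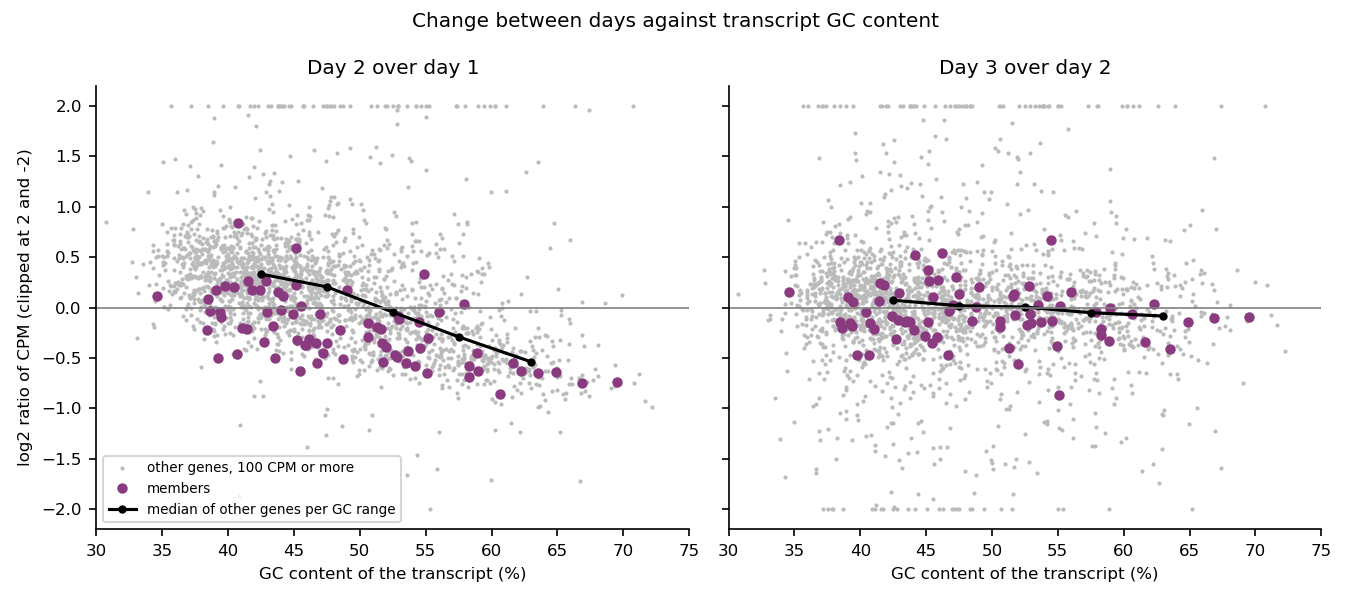
The log2 ratio of CPM (clipped at 2 and -2) is plotted against transcript GC content for day 2 over day 1 (left) and day 3 over day 2 (right), with the 74 members in purple and other genes at 100 CPM or more in grey. Black points joined by a line are the medians of the other genes in 5 GC ranges. Members of high GC lie lowest on the left and show no such slope on the right, where ATP5MC1 and ATP5ME lie at nearly the same GC content and far apart in ratio.

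Other genes of the pathway were read from lists, with day 1, 2 and 3 levels for those named. The nuclear-encoded complex II genes and cytochromes c and c1 (6 genes) had a median log2 ratio of day 2 over day 1 of 0.13, which is -0.19 under TMM scaling, with 1 called higher and 0 lower, where 17.4% and 5.33% of all genes were called. SDHD, a membrane anchor of complex II, took 35.2, 58.9 and 53.5 CPM, and CYC1, cytochrome c1, took 158, 116 and 108 CPM. The 13 mitochondrially encoded subunits had medians of 0.01 for day 2 over day 1, which is -0.32 under TMM scaling, and -0.23 for day 3 over day 2, and together took 4.60%, 4.38% and 3.59% of UMIs. On day 2, 3 of the 13 were called higher and 0 lower, against 17.4% and 5.33% of all genes. MT-ATP8 took 45.2, 205 and 286 CPM, whereas MT-CO2, a catalytic subunit of complex IV, took 10937, 9675 and 6354 CPM. Nuclear members thus came to 53.7, 46.5 and 54.5 UMIs per 100 mitochondrially encoded UMIs, lowest on day 2.

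Of 45 assembly factors at 10 CPM or more, 2 were called higher and 6 lower on day 2, where 17.4% and 5.33% of all genes were called, with a median of -0.06, which is 0.19 per ribosomal protein UMI. SURF1, a complex IV assembly factor, took 79.1, 46.9 and 28.8 CPM and PET100, another, took 84.0, 98.5 and 183 CPM. Of 77 mitochondrial ribosomal protein genes, 2 were higher and 13 lower on day 2 against the same shares, with a median of -0.20 where that of the members was -0.26, and 0.04 per ribosomal protein UMI. The 14 citrate cycle genes had a median of -0.0014 for day 2 over day 1, which is 0.25 per ribosomal protein UMI, and the 11 regulators of mitochondrial biogenesis had 0.24, which is -0.08 under TMM scaling. Of these regulators 2 were called higher and 0 lower on day 2, against the same shares, and the median of all genes was 0.22. NRF1 itself took 51.3, 80.1 and 81.3 CPM and GABPA took 12.9, 23.5 and 23.4 CPM. POLRMT and TFB1M were lower on day 2 than on day 1, with 33.4, 22.3 and 25.3 CPM and 48.0, 43.9 and 29.8 CPM. The 20 glycolysis genes had a median of -0.06, which is 0.19 per ribosomal protein UMI, with 0 called higher and 1 lower against the same shares. Their summed share did fall, at 0.917%, 0.740% and 0.680% of UMIs on days 1, 2 and 3. The summed ratio of day 2 over day 1 was 0.807, where that of the members was 0.824. GAPDH, the largest of them, took 4121, 2771 and 2172 CPM. MALAT1 and NEAT1, RNAs kept in the nucleus, moved against the members, at 1293, 2757 and 3557 CPM and 39.9, 94.7 and 168 CPM. Their part in the members' share was not tested.

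The make-up of the culture changed over the same days, so the members were also read within classes of cells set by 1 marker gene. Each cell was thinned to 5000 UMIs, and classes were made of cells with a UMI of MESP1 (a gene of nascent mesoderm), of TBXT without MESP1 (a gene of the primitive streak) and of SOX2 without either (a gene of pluripotent cells). Cells with none of the 3 genes formed a further class, and a cell can lack a marker's UMI by sampling alone. A single UMI can also come from free RNA, whose share was not measured, so a class is named by its gene and not as a cell type. The SOX2 class had 1858, 1502 and 85 cells on days 1, 2 and 3, the TBXT class 64, 1180 and 345, and the MESP1 class 1265 on day 2 and 4207 on day 3. Its 10 cells on day 1 were not used. In the SOX2 class the pluripotent markers summed to 2041, 2195 and 2073 CPM on days 1, 2 and 3, but streak markers (TBXT, MIXL1, EOMES, FGF8 and EVX1) summed to 25.5, 154 and 391 CPM and mesoderm markers to 7.53, 13.3 and 94.1 CPM. The class was thus not the same cells on each day. In the MESP1 class the pluripotent markers summed to 1301 CPM on day 2 and 616 on day 3, with mesoderm markers at 731 and 1910 CPM. Each of these lists holds a gene that sets a class (SOX2, TBXT or MESP1). Part of a sum was thus fixed by the class rule, and a gene that a class excludes added nothing to its sums.

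Within a day the classes differed little in the summed members. On day 2 they made up 2.04% of UMIs in the SOX2 class, 2.04% in the TBXT class and 2.06% in the MESP1 class. On day 3 the values were 2.07%, 1.95% and 2.00%. The ratio of the MESP1 class to the SOX2 class was 1.01 (1.006 to 1.021) on day 2, which became 0.974 with cells thinned to 10000 UMIs and 0.989 with cells of at most 10% mitochondrial UMIs, and 0.968 (0.948 to 0.989) on day 3. The difference between days 1 and 2 was larger, with ratios of day 2 over day 1 of 0.816 (0.811 to 0.821) in the SOX2 class and 0.829 (0.811 to 0.849) in the TBXT class. Day 3 over day 2 gave 1.01 (0.992 to 1.036) in the SOX2 class, 0.953 (0.942 to 0.965) in the TBXT class and 0.969 (0.963 to 0.975) in the MESP1 class. The ratio was 1.03 (1.02 to 1.05) in cells with a TFAP2A UMI. The fall of the whole libraries at that step was thus not seen in every class.

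Within the SOX2 class 10 members were called lower and 1 higher on day 2 than on day 1, against 5.46% and 18.3% of 9625 genes. In the TBXT class 13 were lower and 3 higher, against 5.09% and 10.2% of 9967 genes. In the whole culture the thinned share went from 2.46% to 2.00%, and in the SOX2 class from 2.50% to 2.04%. Streak markers in the SOX2 class moved with this difference, from 25.5 to 154 CPM, and their part in it was not tested. Cells with a TFAP2A UMI, a class that overlaps the others, had 2.33%, 2.02% and 2.08% (192, 452 and 245 cells). Cells with a HAND1 UMI had 2.06% on day 2 and 1.97% on day 3.

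**Figure D4:**
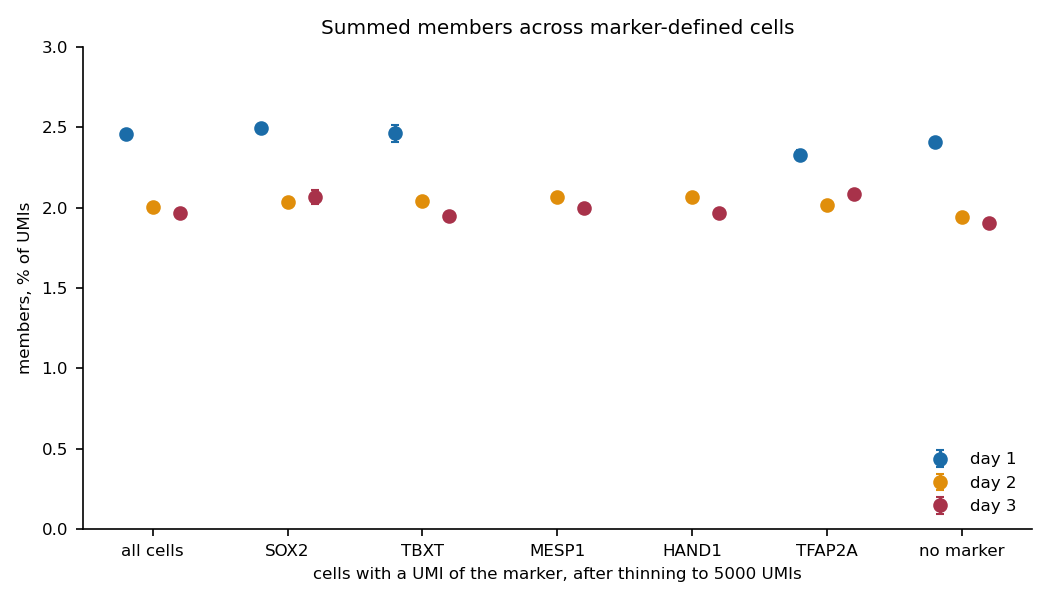
Points give the summed members as a percent of UMIs in each marker class, after thinning each cell to 5000 UMIs, with colours for days and bars for exact 95% intervals. Day 1 classes lie between 2.33% and 2.50% and all classes of days 2 and 3 lie between 1.90% and 2.08%.

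ATP5MC1 and ATP5ME kept the order of days of the whole libraries within the SOX2 and TBXT classes, except that the TBXT class had little difference in ATP5ME between days 1 and 2. ATP5MC1 took 438, 280 and 221 CPM in the SOX2 class on days 1, 2 and 3, 409, 293 and 173 CPM in the TBXT class, and 263 and 158 CPM in the MESP1 class on days 2 and 3. Its level was thus lower each day in each class, and on day 3 it was highest in the SOX2 class, where the interval of 179 to 271 CPM lay above that of the MESP1 class, 152 to 163 CPM. ATP5ME took 517, 453 and 812 CPM in the SOX2 class, 472, 467 and 726 CPM in the TBXT class and 476 and 745 CPM in the MESP1 class. It was the only member called higher on day 3 than on day 2 in all 3 classes, in which 3, 2 and 1 members were higher against 6.38%, 11.7% and 9.53% of genes. ATP5MC1 was called lower at that step in the TBXT and MESP1 classes (1 member each, against 5.79% and 9.52%). COX7C did not keep its order in the 85 SOX2 cells of day 3. It took 1163, 889 and 1042 CPM in the SOX2 class, with its lowest value on day 2, where the whole libraries had it on day 3. For ATP5MC1 in the SOX2 class the ratio of day 3 over day 2 was 0.791 (0.636 to 0.973), and 2 members were called lower there, NDUFS4 among them, against 2.14% of genes.

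**Figure D5:**
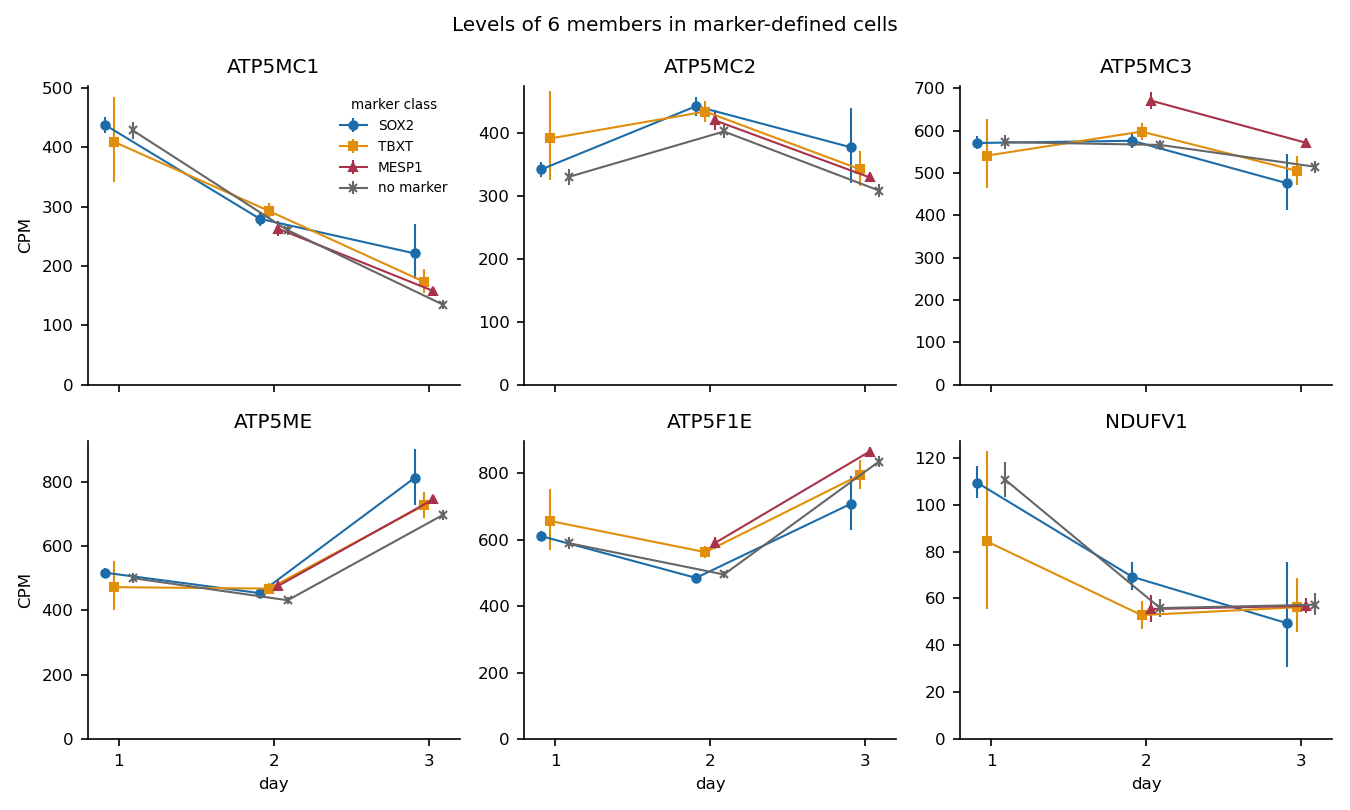
CPM of 6 members by day in 4 marker classes, each panel with its own axis from 0, with bars for exact 95% Poisson intervals. ATP5MC1 steps down and ATP5ME steps up on day 3 in every class drawn. ATP5MC2 and ATP5MC3 are also lower on day 3 than on day 2 in the SOX2 class (442 to 376 CPM and 576 to 475 CPM). The same holds in the MESP1 class (419 to 329 CPM and 671 to 571 CPM).

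Between classes of the same day few members stood apart. MESP1 cells of day 2 had 0 members called against SOX2 cells, where 7.67% and 9.79% of 9925 genes were higher and lower. TBXT cells of day 2 had 0 called against SOX2 cells (4.68% and 4.48% of all genes), and MESP1 cells 0 against TBXT cells (3.3% and 4.25%). On day 1 NDUFS1 was lower in the TBXT class than in the SOX2 class and 0 members were higher, against 2.27% and 3.81%, and on day 3 NDUFA3 was lower and NDUFS4 higher, against 7.34% and 6.78%. MESP1 cells of day 3 had 0 called against TBXT cells, where 2.74% and 9.83% of all genes were higher and lower. On day 3 COX7C and NDUFA3 were lower and 0 members were higher in the MESP1 class, against 15.3% and 8.67% of 10393 genes. Of the 74 members, 49 had the same direction on both days (27 higher and 22 lower in MESP1 cells). For 5 both intervals excluded 1: ATP5F1E, ATP5MC3 and UQCR10, which were higher, and COX7C and ATP5PO, which were lower. These 2 counts were not made over all genes, so they are not read as a trait of the members. ATP5F1E was highest by the less extreme of both days, at 590 against 485 CPM on day 2 and 865 against 708 CPM on day 3. ATP5MC3 (671 against 576 CPM, then 571 against 475 CPM), NDUFA11 (249 against 208 CPM, then 242 against 195 CPM) and ATP5MF (407 against 357 CPM, then 423 against 367 CPM) came next, and the day 3 intervals of NDUFA11 and ATP5MF included 1.

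By the less extreme of both days, COX7C was the lowest member in MESP1 cells against SOX2 cells, at 741 against 889 CPM on day 2 and 587 against 1042 CPM on day 3. The ratios were 0.834 (0.803 to 0.866) and 0.563 (0.512 to 0.620), and on day 2 alone NDUFV1 (0.801) and COX5A (0.823) were lower. COX5A (248 against 301 CPM, then 224 against 259 CPM), ATP5F1B (297 against 342 CPM, then 279 against 325 CPM) and NDUFA9 (54.1 against 61.1 CPM, then 52.6 against 61.2 CPM) followed, with intervals for day 3 that included 1. Summed complex IV was lower in MESP1 cells on day 3, by a ratio of 0.888 (0.847 to 0.931). Without COX7C, picked after its value was seen, the ratio of the other 16 genes was 0.996 (0.943 to 1.05), so that COX7C held nearly the whole difference between these classes. In TBXT cells of day 3 the ratio to SOX2 cells was 0.874 (0.829 to 0.922) with COX7C and 0.934 (0.879 to 0.992) without it, an interval that still excluded 1. HAND1 cells of day 3 had COX7C, ATP5MC1, ATP5PD and NDUFA3 lower than SOX2 cells and 0 members higher, against 15.8% and 9.65% of genes. In these cells the complex IV ratios with and without COX7C were 0.867 (0.827 to 0.909) and 0.987 (0.935 to 1.04).

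Cell by cell, the members followed the ribosomal protein genes. The median share of a thinned cell was 2.50%, 2.04% and 1.96% on days 1, 2 and 3, with the middle 90% of cells between 1.54% and 3.36%, 0.560% and 2.80%, and 1.30% and 2.72%. Across the 3499, 6742 and 6675 cells of a day, the share of the members and that of ribosomal protein genes had Pearson r of 0.87, 0.87 and 0.78. Spearman rho was 0.79, 0.78 and 0.74. With the share of mitochondrially encoded genes r was -0.54, -0.58 and -0.40, while rho was weaker at -0.35, -0.21 and -0.21. These are descriptions within libraries of shares that compete for the same 5000 UMIs.

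A tail of cells held few member transcripts, with under 1% of UMIs in 120 (3.43%), 405 (6.01%) and 126 (1.89%) cells. On day 2 those cells had a median of 6986 UMIs before thinning against 16601 in the others, 12.4% mitochondrial UMIs against 3.82%, 2.60% ribosomal protein UMIs against 20.6%, and 8008 against 2589 CPM of MALAT1. Cells of 10000 to 20000 UMIs, a range filled on every day, had 2.26%, 2.07% and 2.07% of their UMIs in members (332, 4035 and 3191 cells). In that range ATP5MC1 took 375, 281 and 159 CPM and ATP5ME 517, 469 and 782 CPM, the same order of days as in the whole libraries. The summed difference was smaller in this range than in the whole libraries, but its day 1 cells also had 7.01% mitochondrial UMIs against 4.14% and 3.72% on days 2 and 3, and 2208 CPM of MALAT1 against 1459 in day 1 cells of 20000 to 40000 UMIs. The part of these values was not tested. Cells of 20000 to 40000 UMIs had 2.55%, 2.10% and 1.89% of their UMIs in members.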

How the data were processed

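Single cells of UCLA1 were loaded on the 10x Genomics platform, per the labels. The authors deposited 1 matrix of raw UMI counts per library, made with Cell Ranger 5.0.1 on hg38 per the submitters' processing notes. The labels do not state which transcript end the kit read. Libraries were grouped by their day label.

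A barcode entered the sums if it had 1000 genes or more and no more than 20% of its UMIs from mitochondrial genes. The automatic doublet threshold of Scrublet (scanpy 1.11.5) marked 0, 2 and 1 cells and so did not work, and the highest-scoring cells were removed at 0.8% per 1000 barcodes (144, 668 and 457 cells). UMIs were summed per library and ratios given exact conditional binomial intervals, Poisson intervals for CPM. Classes of under 50 cells were not used. Scaling factors came from edgeR 4.0.16 (TMM) and DESeq2 1.42.0 (median of ratios) and no model was fitted. Positions and transcripts are from GENCODE release 44, promoters from RefSeq. The ratio and call script was tested on simulated data.

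Full values were given to the 5 members of each complex with the highest mean CPM, the 6 highest and lowest ratios of each step, paralogs, and the 4 highest and lowest by MESP1 over SOX2 class, and of other lists to at most the 2 highest and lowest. Members, lists, markers and rules were chosen with earlier results of these data known. Alternatives were other scalings, cell filters, level minimums, fold thresholds, thinning depths and class definitions. Values of 1 member are not reported here by name.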

Additional observations from a re-analysis of the deposited data

Results flagged for a closer look

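The summed members were slightly higher in the MESP1 class than in the SOX2 class on day 2, with a ratio of 1.013, and lower on day 3, with a ratio of 0.968. Both counting intervals excluded 1, and the contrast pointed in opposite directions. The day 2 ratio became 0.974 (0.970 to 0.979) with cells thinned to 10000 UMIs and 0.989 (0.981 to 0.996) with at most 10% mitochondrial UMIs, both the direction of day 3. With 1 library per day the difference between the days was not tested, and the day 3 SOX2 class held 85 cells. Without COX7C, the summed complex IV ratio on day 3 was 0.996 in place of 0.888.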

How the results depend on the processing

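Of 149 alternative values, 98 were counted as close to the reported ones, 46 as moved and 5 as changed in direction. A change of direction was counted only where the reported interval excluded 1 (0 for a log2 ratio). Further crossings are thus among the 98 and the 46. TBXT over SOX2 on day 2, at 1.003, became 0.981, 0.995, 0.989 or 0.998, and on day 1 it went from 0.986 to 1.03. Not run were 3 class settings with under 50 cells. Under TMM scaling the median log2 ratio of the members was -0.58 for day 2 over day 1 and -0.58 for day 3 over day 1, with 0 higher and 37 lower in each. Of all genes, 6.02% were higher and 16.7% lower in the first comparison, and 18.3% and 24.5% in the second. Median-of-ratios scaling gave -0.58 with 0 higher and 37 lower, and -0.55 with 0 higher and 35 lower, and -0.049 for day 3 over day 2. Its shares of all genes higher and lower were 5.99% and 16.7%, then 19.3% and 23.4%, in the comparisons with day 1. Both scalings moved the median of all genes down by 0.28 to 0.32 in the comparisons with day 1. A total without mitochondrial and ribosomal protein UMIs gave -0.33 with 1 higher and 17 lower on day 2, against 13.1% and 7.33% of all genes. For day 3 over day 1 it gave -0.38 with 0 higher, against 25.9%. Per ribosomal protein UMI, chosen after seeing the data, the medians were -0.0094 with 2 higher and 1 lower and 0.0014 with 9 higher and 8 lower, the latter a change of direction. Of all genes, 38.9% were higher and 1.66% lower in the first of these comparisons, and 47.8% and 9.58% in the second.

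For day 2 over day 1 the median was -0.23 with at most 10% mitochondrial UMIs, -0.22 in cells of at least 10000 UMIs, -0.29 with a minimum of 2 CPM, -0.29 with no minimum (-0.31 for day 3 over day 1) and -0.29 without restricted isoforms, copies, ATP5IF1 and COX7A2L. No cell filter left 1 higher on day 2, against 17.5% of all genes. With each cell weighted equally the median was -0.34, with 1 higher and 18 lower, against 21.2% and 6.17%. Day 3 over day 2 then gave -0.023 with 4 higher, against 11.5%. With calls from a difference of 25%, 33 were lower on day 2, 5 higher and 11 lower for day 3 over day 2, and 9 higher and 35 lower for day 3 over day 1. The shares of all genes at that threshold are given with the main results.

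Class ratios of days 1 and 2, which were near 1, did not keep their direction in every setting. Those of day 3 kept theirs in each setting run, with TBXT over SOX2 from 0.935 to 0.945 and MESP1 over SOX2 from 0.949 to 0.969. With cells thinned to 10000 UMIs, TBXT over SOX2 was 1.03 on day 1 and 0.981 on day 2, MESP1 over SOX2 was 0.974 on day 2, and MESP1 over TBXT was 0.993 on day 2 and 1.01 on day 3. With at least 2 marker UMIs, TBXT over SOX2 was 0.995 and MESP1 over SOX2 1.00 on day 2, and MESP1 over TBXT was 1.08 on day 3. With at most 10% mitochondrial UMIs, TBXT over SOX2 was 0.989, MESP1 over SOX2 0.989 and MESP1 over TBXT 0.999 on day 2. The cause was not tested. No paired analysis was possible because each day has 1 library.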
